A study of Rattus norvegicus with 56 samples.

Results

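The regions described here are constitutive bivalent regions of the rat brain genome: stretches of DNA that carried a peak of trimethylated lysine 4 of histone H3 (H3K4me3) and a peak of trimethylated lysine 27 of histone H3 (H3K27me3) in each of 4 tissue conditions. They were chosen by the peak lists of these 2 marks. Overlapping H3K4me3 peaks of the 4 conditions were joined to 56333 regions, and the 18912 with a peak in every one of the 4 lists are called constitutive. Of these, 4063 (21.5%) also overlapped an H3K27me3 peak by at least 1 bp in all 4 H3K27me3 lists, and these are the bivalent regions. A further 11102 constitutive regions (58.7%) overlapped H3K27me3 in none of the 4 lists, and 3747 (19.8%) in 1 to 3 of them. The presence, fold and extent of both marks in these 8 lists were used in, or come from the same data as, the selection, and are given below as a description without a test.

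H3K4me3 sits at the start sites of genes that are active or ready to be transcribed, and H3K27me3 is laid down by the Polycomb repressive complexes over genes that are held silent. A promoter that carries both is called bivalent, a state first described at developmental genes in embryonic stem cells and also found in differentiated tissues. Acetylation of lysine 9 of histone H3 (H3K9ac) is a mark of active promoters that usually accompanies H3K4me3.

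The study applied ChIP-seq, the sequencing of DNA bound to immunoprecipitated histones, to brain tissue of rats after bleeding inside the brain (intracerebral haemorrhage). All groups carried the haemorrhage, so no list comes from a rat without one. The groups are ipsilateral and contralateral tissue of 13-month rats and of 21-month rats, with no agent given, and ipsilateral tissue of 21-month rats that received plasma from 3-month rats or from 22-month rats. The age of 21 months is that of the labels of the samples, while the text of the series gives 22 months. H3K4me3, H3K27me3 and H3K9ac were profiled in the 4 groups without plasma, and H3K27me3 and H3K9ac in the 2 plasma groups, which gives 16 peak lists. The tissue is a mixture of cell types, and the lists name no gene, so that markers of brain cells could not be read from them.

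A list pools the reads of 2 ChIP libraries and 2 input libraries, or of 1 and 1 in the plasma groups, so there is no spread between replicates and no test between conditions. Intervals below are 95% Wilson intervals over regions, which cover counting error only, and neighbouring regions are not independent. ChIP tags kept per list ranged from 19323327 (H3K9ac, 13-month ipsilateral) to 117740131 (H3K27me3, 21-month ipsilateral). A fold is the authors' enrichment of a peak over its local background, and the fold of a region in a list is the highest among the peaks that overlap it. Each mark at each age was processed in a run of its own, and the plasma lists in another, so age and plasma cannot be told apart from the run. Positions are those of the deposited lists, and the sources used here do not name their genome build. For that reason no gene names or sequences were attached to the regions.

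Each region is made of H3K4me3 peaks and had to overlap an H3K27me3 peak in each list, so shared bases follow largely from the rule. In 3991 of the 4063 regions (98.2%) the H3K4me3 and H3K27me3 peaks shared bases in all 4 conditions, and in the other 72 they lay side by side within the region in at least 1 condition. The median length of the shared stretch was 773 bp in 13-month ipsilateral, 657 bp in 13-month contralateral, 1027 bp in 21-month ipsilateral and 1198 bp in 21-month contralateral tissue. The summit of the strongest H3K4me3 peak lay inside an H3K27me3 peak in 88.0%, 90.6%, 95.2% and 97.9% of the regions in the same order. H3K27me3 peaks covered a median of 78.5%, 61.4%, 92.8% and 91.0% of the bases of a region, against which these shares are to be read. In bulk tissue, both marks on the same nucleosomes cannot be told apart from each mark on the same stretch of DNA in different cells, and fewer marked cells cannot be told apart from less of the mark per cell.

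**Figure D1:**
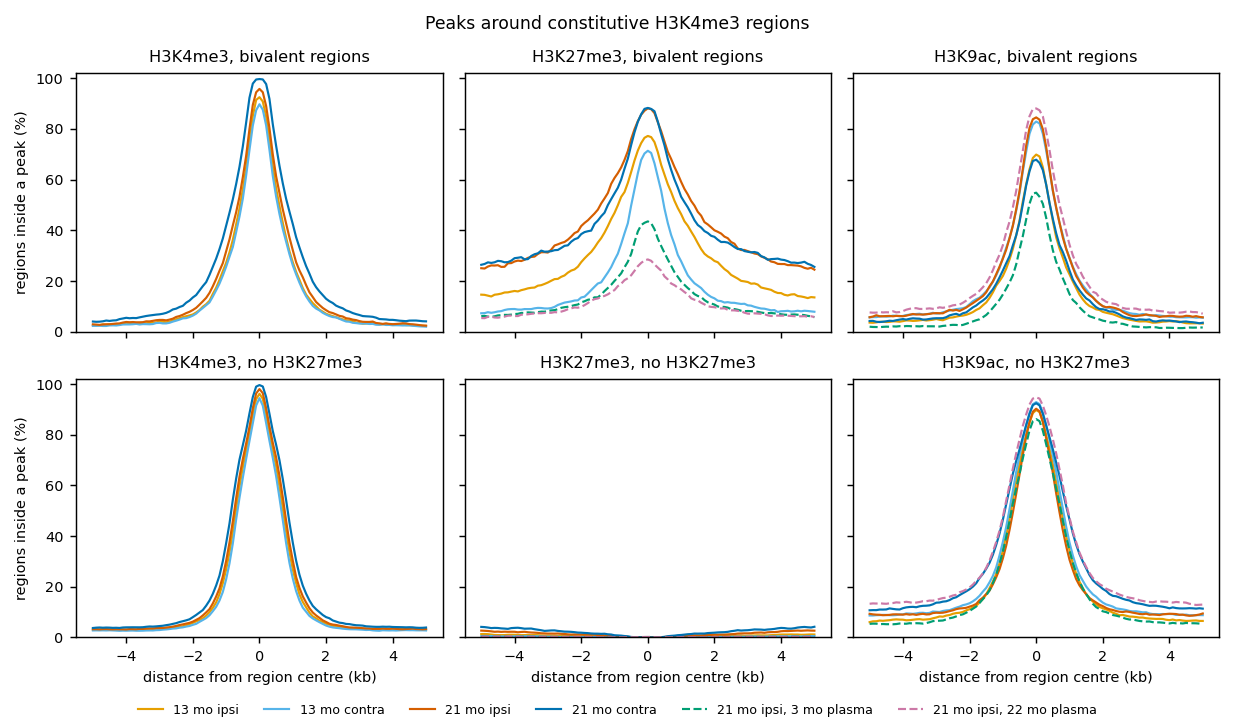
Share of regions (percent, vertical axis) that lie inside a peak at each distance from the region centre (kb, horizontal axis), for the 4063 bivalent regions (top row) and the 11102 constitutive regions without H3K27me3 (bottom row), with 1 line per list. H3K4me3 and H3K9ac form a narrow peak in both classes, whereas H3K27me3 at the bivalent regions has broad shoulders that still cover 25.99% of them at 5 kb in 21-month contralateral tissue; its near absence in the bottom row follows from the selection.

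H3K27me3 extended well beyond the regions, as the plot of peaks around the region centres shows. In 21-month ipsilateral tissue an H3K27me3 peak covered the centre of 88.1% of the bivalent regions, 40.9% of the points 2 kb away and 24.8% of the points 5 kb away. H3K4me3 in the same tissue covered 95.8%, 8.53% and 2.65% of these points. When H3K27me3 peaks less than 1 kb apart were joined to domains, the domains that held bivalent regions (the widest domain of each region, each domain counted once) had a median width of 2498.5 bp and 1300 bp in 13-month ipsilateral and contralateral tissue, and of 4203 bp and 3814 bp in the same sides at 21 months. Over all H3K27me3 domains of these lists the median widths were 342, 319, 453 and 453 bp. Domains that held bivalent regions were a small share of the H3K27me3 domains, between 1.72% (21-month contralateral) and 9.82% (13-month contralateral) of them. Their greater width follows in part from the selection. A wide domain has more room to meet a region, and the widest domain of each region was taken. On each side the 21-month list had wider domains and more tags, 117740131 against 71635071 ipsilaterally and 73142126 against 35621686 contralaterally. The 13-month ipsilateral and 21-month contralateral lists kept similar numbers of tags, with median widths of 2498.5 and 3814 bp. Each age also had a processing run of its own, and the part of tags and run in the width was not tested.

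The bivalent regions had a median length of 1630 bp (lower and upper quartile 986 and 2543 bp, range 207 to 12457 bp), close to the 1670 bp of the constitutive regions without H3K27me3. Their quartiles lay further apart than the 1042 and 2264 bp of the regions without H3K27me3. At the long end 247 bivalent regions (6.08%) reached 4 kb, against 2.68% of the regions without H3K27me3. Very short regions were fewer among them, with 3.40% under 500 bp against 6.59%. The share of constitutive regions that were bivalent did not climb steadily with length. It was 11.8% (interval 10.1 to 13.8%) below 500 bp, 23.6% (22.3 to 25.002%) from 500 to 999 bp and 23.2% (21.8 to 24.6%) from 1000 to 1499 bp. It was 16.8% (15.6 to 18.0%) from 1500 to 1999 bp, 20.5% (19.3 to 21.7%) from 2000 to 2999 bp, 28.5% (26.2 to 30.9%) from 3000 to 3999 bp and 34.8% (31.4 to 38.4%) at 4 kb or more. The share was therefore highest in the longest regions and lowest in the shortest, with a dip between, and a longer region has more room to meet a peak by 1 bp.

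The 4 longest bivalent regions include a pair of neighbours on chromosome 2. The first, at chr2:11864677-11877133, was 12457 bp long and had H3K4me3 folds of 8.49, 8.11, 7.54 and 15.8 and H3K27me3 folds of 4.52, 4.44, 4.96 and 7.65 in 13-month ipsilateral, 13-month contralateral, 21-month ipsilateral and 21-month contralateral tissue. Its neighbour, at chr2:11878643-11887605, was 8963 bp long and had H3K27me3 over 325 bp of its length in the 13-month contralateral list. The others, at chr1:141223007-141233250 and chr14:55077678-55086487, measured 10244 and 8810 bp. All 4 carried H3K9ac in all 6 lists, with folds in the 13-month ipsilateral list between 8.77 and 18.2. In the longest region H3K27me3 peaks took 2263 to 8815 of the 12457 bp, so that such regions were bivalent over only some of their length.

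H3K4me3 was weaker at the bivalent regions than at the constitutive regions without H3K27me3 in each of the 4 lists. The median fold was 5.72 against 9.93 in 13-month ipsilateral tissue and 5.75 against 9.58 in 13-month contralateral tissue. It was 7.02 against 11.98 in 21-month ipsilateral tissue and 11.0 against 16.2 in 21-month contralateral tissue. The ratio of the medians lay between 0.576 and 0.680. Regions with H3K27me3 in 2 or 3 of the 4 lists had H3K4me3 as weak, with a median lowest fold over the 4 lists of 4.67 and 5.13, against 4.99 at the bivalent regions and 8.76 at those without H3K27me3. The order of the lists was the same in both classes at 21 months, with higher folds on the contralateral side: 92.6% of bivalent regions and 82.3% of regions without H3K27me3 had the higher H3K4me3 fold there. At 13 months the sides were balanced at the bivalent regions, with 50.6% of them higher on the contralateral side, against 43.8% of the regions without H3K27me3.

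H3K27me3 at the bivalent regions had a median fold of 4.01 in 13-month ipsilateral tissue and 5.42 in 13-month contralateral tissue. At 21 months the medians were 4.52 (ipsilateral) and 7.25 (contralateral). The contralateral fold was the higher one in 82.1% of the bivalent regions at 13 months and in 90.9% at 21 months, by a median of 0.45 and 0.70 on the log2 scale. Over all constitutive regions with a peak on both sides, most of them bivalent, the shares were 81.8% and 87.4%. The median fold over all H3K27me3 peaks was also higher contralaterally, 3.45 against 2.84 at 13 months and 2.99 against 2.63 at 21 months. The contralateral lists kept fewer ChIP tags than the ipsilateral ones, 35621686 against 71635071 at 13 months and 73142126 against 117740131 at 21 months, and no correction for this was made, so the part of depth in the folds was not tested.

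**Figure D2:**
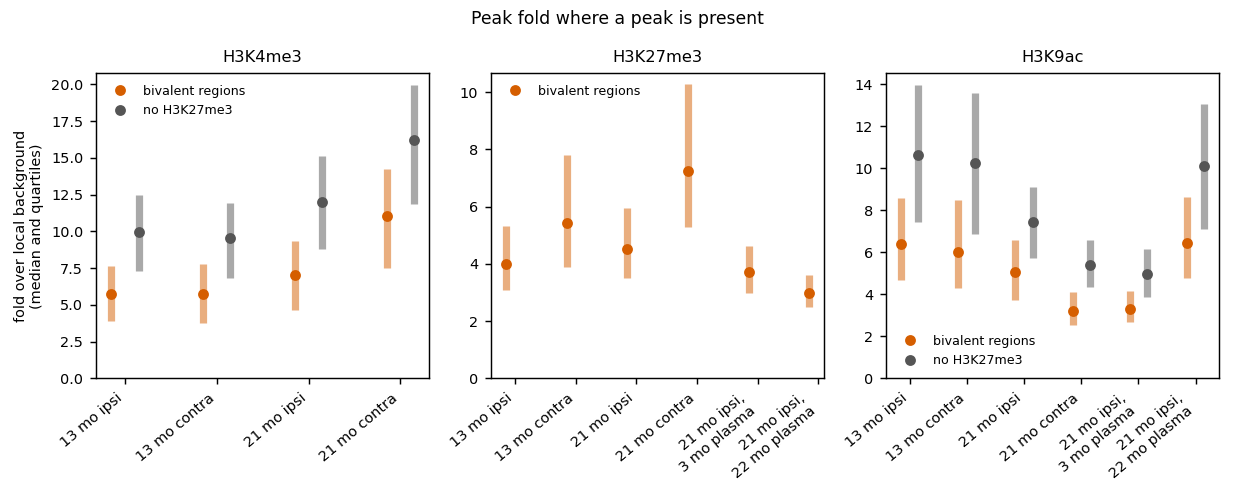
Fold over local background (vertical axis, starting at 0) of H3K4me3, H3K27me3 and H3K9ac in each list (horizontal axis), at the regions that have a peak there. Points are medians and bars run from the lower to the upper quartile; bivalent regions lie below the regions without H3K27me3 in every H3K4me3 and H3K9ac list, for example at 5.72 against 9.93 for H3K4me3 in 13-month ipsilateral tissue.

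The 6 bivalent regions with the strongest H3K27me3 had H3K9ac in 1 to 5 of the 6 lists. They were ranked by the lowest of their 4 H3K27me3 folds, a rank made from the values that also chose the regions. The leading one, at chr2:201288643-201291407, had H3K27me3 folds of 12.7, 14.3, 11.8 and 17.9 in the order of tissues above, H3K4me3 folds of 4.66, 5.54, 4.32 and 7.78, and H3K9ac in 5 of 6 lists. It lay in an H3K27me3 domain that was 31013 bp wide even in the list where it was narrowest. The second, at chr3:61619798-61621102, had H3K27me3 folds of 11.7, 14.1, 14.0 and 15.8 and H3K4me3 folds of 2.13, 2.25, 3.24 and 5.69. H3K27me3 peaks covered all of its 1305 bp in each list, and H3K9ac appeared in 1 list, that with plasma of 22-month rats, at a fold of 3.39. The next 4, on chromosomes 1, 17, X and 15, were 508 to 1941 bp long and had H3K9ac in 2 or 3 lists, so none of the 6 carried H3K9ac throughout. These are extremes: of the 1017 regions in the strongest of 4 classes by that rank, 45.2% (interval 42.2 to 48.3%) had H3K9ac in all 6 lists, against 81.6% (79.1 to 83.9%) of the 1012 in the weakest.

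How far H3K27me3 covered a region divided the class. In 852 bivalent regions (21.0%) H3K27me3 peaks covered at least 90% of the bases in every list, and in 780 (19.2%) they covered under 25% in the list that covered least. The regions covered to at least 90% were shorter, with a median of 1014 bp against 2492 bp, and their median lowest H3K4me3 fold was 3.03 against 6.75. Coverage is a share of the length of a region, so a short region reaches 90% more easily. The contrast in length is thus partly built into the classes. Near the edge of the rule, 9 bivalent regions overlapped H3K27me3 by under 50 bp in 1 of the lists. The 3 closest, at chr3:43117846-43122157, chr14:8431536-8432839 and chr4:155169326-155169718, did so by 6, 9 and 23 bp. Just outside, the regions at chr7:14513720-14514427, chr4:57005193-57005578 and chr6:131875307-131876164 missed an H3K27me3 peak of 1 list by 1, 2 and 10 bp. Of the 975 constitutive regions with H3K27me3 in 3 of the 4 lists, 437 lacked it in the 13-month ipsilateral and 485 in the 13-month contralateral list, so it was the 13-month lists that mostly set the border.

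H3K9ac was not used in the rule and was present at most bivalent regions, but less often than at constitutive regions without H3K27me3 in 5 of the 6 lists. In 13-month ipsilateral tissue 3527 bivalent regions (86.8%, interval 85.7 to 87.8%) had an H3K9ac peak, against 92.3% of all constitutive regions and 95.5% of those without H3K27me3. In 13-month contralateral tissue 3838 (94.5%, 93.7 to 95.1%) had one, against 95.3% of all and 96.8% of those without H3K27me3. At 13 months the bivalent class differed more from the rest on the ipsilateral side.

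At 21 months the sides were the other way round. In ipsilateral tissue 3947 bivalent regions (97.1%, 96.6 to 97.6%) had H3K9ac, against 96.0% of all constitutive regions and 96.3% of those without H3K27me3. This was the only list in which the bivalent share was above that of the regions without H3K27me3. In contralateral tissue 3413 (84.0%, 82.8 to 85.1%) had it, against 93.8% of all and 97.9% of those without H3K27me3. With plasma of 3-month rats 3058 (75.3%, 73.9 to 76.6%) had H3K9ac, against 87.0% of all and 93.4% of those without H3K27me3. With plasma of 22-month rats 3933 (96.8%, 96.2 to 97.3%) had it, against 96.6% of all and 97.4% of those without H3K27me3. The difference between bivalent regions and regions without H3K27me3 was wide in 3 lists and small in the others. It was -13.9 points (95% Newcombe interval -15.1 to -12.7) in 21-month contralateral tissue, -18.2 (-19.6 to -16.8) with plasma of 3-month rats and -8.69 (-9.83 to -7.61) in 13-month ipsilateral tissue. It was 0.82 (0.169 to 1.42) in 21-month ipsilateral tissue, -2.30 (-3.10 to -1.55) in 13-month contralateral tissue and -0.62 (-1.27 to -0.0357) with plasma of 22-month rats.

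H3K9ac was present in all 6 lists at 2825 bivalent regions (69.5%, interval 68.1 to 70.9%), against 82.5% of all constitutive regions and 89.8% of those without H3K27me3. At the other end, 39 bivalent regions (0.960%) had no H3K9ac in any list, a share near the 0.841% of all constitutive regions. A low share with H3K9ac in all 6 lists was also found where H3K27me3 was present in only some of the 4 lists, at 67.2% of the regions with 2 H3K27me3 lists and 72.6% of those with 3. In 21-month contralateral tissue alone these classes had H3K9ac at 88.5% and 91.6%, against the 84.0% of the bivalent regions. Where H3K9ac was present it was weaker at the bivalent regions in each of the 6 lists, for example with a median fold of 6.37 against 10.6 in 13-month ipsilateral tissue and of 3.23 against 5.38 in 21-month contralateral tissue. When only H3K9ac peaks of a fold of 4 or more counted, 451 bivalent regions (11.1%) had them in all 6 lists, against 58.7% of the regions without H3K27me3.

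The summit of the strongest H3K9ac peak lay inside an H3K27me3 peak of the same tissue in 85.2% (interval 84.0 to 86.3%) of the regions with H3K9ac in 13-month ipsilateral and in 89.6% (88.6 to 90.5%) in 13-month contralateral tissue. At 21 months the shares were 95.8% (95.2 to 96.4%) on the ipsilateral and 94.4% (93.6 to 95.1%) on the contralateral side. The median distance between the H3K9ac and the H3K4me3 summit was 49 to 108 bp over the 4 tissues. As for H3K4me3, these shares are to be read against the wide H3K27me3 coverage of the regions, so a summit anywhere in a region would often fall inside.

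Much of the lower H3K9ac share went with weak H3K4me3. The 18912 constitutive regions were put in 4 classes of nearly equal size by their lowest H3K4me3 fold. In the class with the weakest H3K4me3, 37.9% (interval 35.6 to 40.4%) of 1550 bivalent regions had H3K9ac in all 6 lists, against 55.2% (52.9 to 57.5%) of 1802 regions without H3K27me3. In the next class the shares were 85.5% (83.8 to 87.1%) of 1805 and 87.1% (85.4 to 88.5%) of 1838. In the 2 upper classes they were 97.8% and 98.4%, against 98.7% and 98.9%. At matched H3K4me3 the gap was wide in the weakest class and small in the others.

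**Figure D3:**
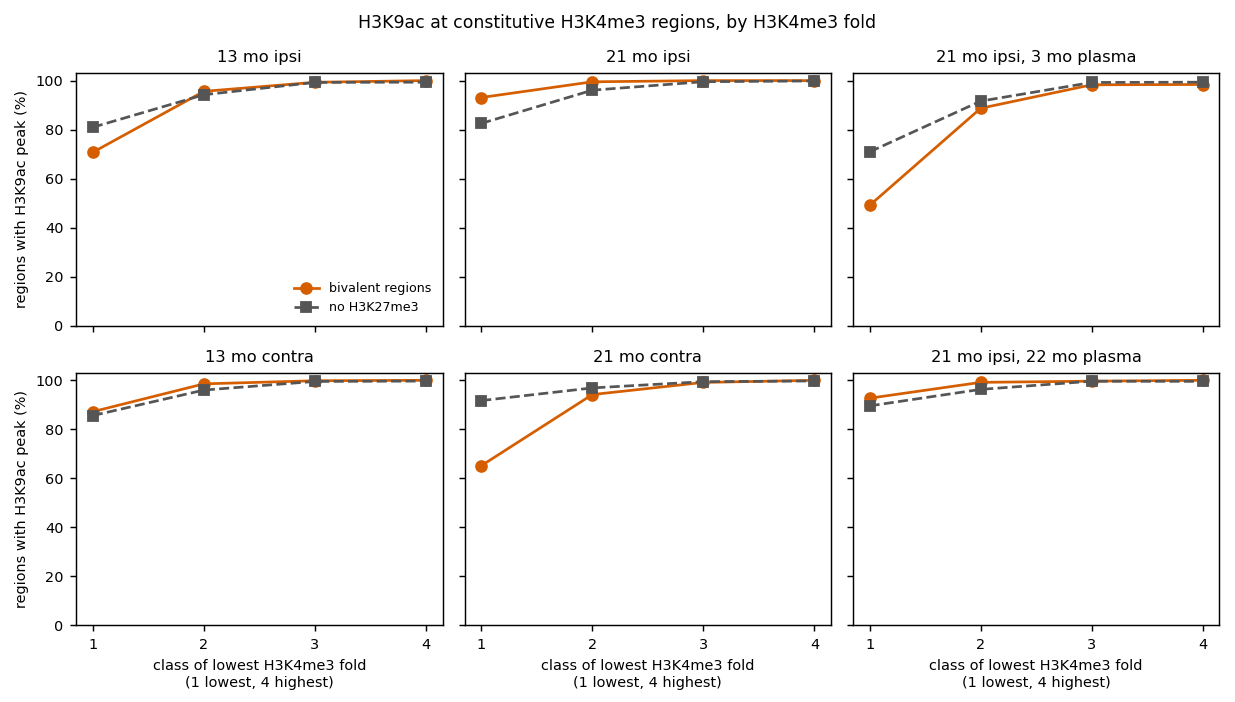
Share of regions with an H3K9ac peak (percent, vertical axis, from 0) in 4 classes of lowest H3K4me3 fold (horizontal axis), with 1 panel per H3K9ac list, for bivalent regions (solid line, circles) and regions without H3K27me3 (dashed line, squares). In the weakest class the bivalent regions lie at 65.2% against 91.7% in 21-month contralateral tissue but at 93.1% against 82.5% in 21-month ipsilateral tissue, and the lines meet in the upper 2 classes.

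In that weakest class the direction differed between lists. Bivalent regions had H3K9ac less often than regions without H3K27me3 in 13-month ipsilateral tissue (70.8% against 81.0%), in 21-month contralateral tissue (65.2% against 91.7%) and with plasma of 3-month rats (49.1% against 70.9%). They had it more often in 21-month ipsilateral tissue (93.1% against 82.5%), with plasma of 22-month rats (92.7% against 89.6%) and, by a smaller margin, in 13-month contralateral tissue (87.2% against 85.6%). Length showed another picture: in the shortest of 4 classes by length 39.5% of bivalent regions and 62.5% of regions without H3K27me3 had H3K9ac in all 6 lists, and in the longest 91.1% and 99.3%, so that at matched length the bivalent share was the lower in every class.

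The sides also differed region by region. At 13 months 371 bivalent regions (9.13%) had H3K9ac only contralaterally and 60 (1.48%) only ipsilaterally, against 4.58% and 1.56% of all constitutive regions. At 21 months 551 (13.6%) had it only ipsilaterally and 17 (0.418%) only contralaterally, against 4.31% and 2.12% of all constitutive regions. Among the regions without H3K27me3 the order at 21 months was reversed, with 111 (1.00%) only ipsilateral and 284 (2.56%) only contralateral. Bivalent regions with H3K9ac on 1 side at 21 months thus mostly lacked it contralaterally, and regions without H3K27me3 mostly ipsilaterally.

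That contrast at 21 months was also seen within the class of weakest H3K4me3, where 448 of 1550 bivalent regions (28.9%, interval 26.7 to 31.2%) had H3K9ac only ipsilaterally, against 55 of 1802 regions without H3K27me3 (3.05%, 2.35 to 3.95%). At regions with H3K9ac on both sides, the ipsilateral fold was the higher in 92.4% of bivalent regions and in 79.2% of regions without H3K27me3. The 21-month contralateral H3K9ac list, where the bivalent share was low, kept more ChIP tags than any other H3K9ac list (99213634) and held 120348 peaks. The 13-month ipsilateral list kept the fewest (19323327), with 82% of its ChIP tags marked as duplicates, and held 69557 peaks. The part of depth and of duplicates in the side difference was not tested.

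Between the plasmas, 886 bivalent regions (21.8%) had H3K9ac with plasma of 22-month rats alone and 11 (0.271%) with plasma of 3-month rats alone, against 10.4% and 0.788% of all constitutive regions. Where both lists had a peak, the fold with plasma of 22-month rats was the higher in 97.7% of bivalent regions and in 94.1% of regions without H3K27me3, with median log2 differences of 1.11 and 1.06. The weaker H3K9ac with plasma of 3-month rats was shared by both classes of region. The lists kept 57426239 tags (3-month plasma) and 56130825 tags (22-month plasma), but held 50651 and 123863 peaks. Each comes from 1 ChIP library, and a difference between plasmas cannot be told apart from one between libraries.

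The 4 bivalent regions without H3K9ac that had the strongest H3K4me3 were 411 to 1659 bp long, and H3K27me3 took at least 960 bp of the longest and nearly all of the other 3. At chr2:260597467-260598094 the H3K4me3 folds were 6.25, 4.39, 5.67 and 7.97 and the H3K27me3 folds 6.00, 7.12, 12.3 and 11.5 in 13-month ipsilateral, 13-month contralateral, 21-month ipsilateral and 21-month contralateral tissue. The others lay at chr8:127144772-127145182, chr14:4362139-4363205 and chr12:42488834-42490492. All 4 kept H3K27me3 in both plasma lists, with folds between 3.37 and 7.49.

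At the opposite end, the 4 bivalent regions with the strongest H3K9ac had H3K4me3 folds above the median of the bivalent class in each list. Their H3K27me3 domains were 202 to 681 bp wide in the list where they were narrowest. At chr17:84827282-84829903 the H3K9ac folds were 22.4, 8.68, 10.7 and 7.48 in the same order of tissues, 7.55 with plasma of 3-month rats and 12.4 with plasma of 22-month rats, and H3K27me3 covered 275 to 1367 of its 2622 bp. Another pair lay 28.8 kb apart on chromosome 13, at chr13:102913255-102913783 and chr13:102942598-102943757, with H3K4me3 folds of 42.3 and 23.9 in 21-month contralateral tissue. The fourth lay at chr16:50081724-50082719. H3K27me3 covered 536 to 920 of its 996 bp, and 681 to 1086 of the 1160 bp at chr13:102942598-102943757, so it took up much of these short regions. H3K27me3 was absent from both plasma lists in 3 of the 4.

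Within the bivalent class, H3K9ac was less frequent where H3K27me3 covered more of the region. From the least to the most covered of 5 classes (coverage in the list that covered least of under 25%, 25 to 50%, 50 to 75%, 75 to 90%, and 90% or more), H3K9ac in all 6 lists was present at 88.1%, 83.5%, 75.3%, 66.5% and 31.7% of the regions. In the most covered class the share per list was 63.8% in 13-month ipsilateral, 83.7% in 13-month contralateral, 92.5% in 21-month ipsilateral and 51.3% in 21-month contralateral tissue, 45.1% with plasma of 3-month rats and 92.5% with plasma of 22-month rats. The 3 lists with the lowest shares were the same as over the whole class. H3K4me3 was lower along these classes too, from a median lowest fold of 6.75 to 3.03, and the regions were shorter, and the part of each was not tested.

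H3K27me3 in the 2 plasma lists was not used in the rule either. With plasma of 3-month rats 2732 bivalent regions (67.2%, interval 65.8 to 68.7%) had an H3K27me3 peak, against 15.7% of all constitutive regions. With plasma of 22-month rats 2020 (49.7%, 48.2 to 51.3%) had one, against 11.8%. Both lists had a peak at 1829 bivalent regions (45.02%, 43.5 to 46.5%), against 10.2% of all constitutive regions, and neither had one at 1140 (28.1%). Among the 11102 regions without H3K27me3 in the 4 lists the shares were 0.207% and 0.243%. Regions with H3K27me3 in 3 of the 4 lists had it in 11.9% and 9.44%, so the step to the fourth list was large.

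The H3K27me3 fold at these regions was low with plasma. The median was 3.70 with plasma of 3-month rats and 2.97 with plasma of 22-month rats, over the 2732 and 2020 regions with a peak there. At those same regions the fold in 21-month ipsilateral tissue without plasma was the higher in 83.9% and 95.6%, by a median of 0.48 and 0.93 on the log2 scale. Over all constitutive regions with both peaks, most of them bivalent, the shares were 82.5% and 93.1%. At regions with H3K27me3 in 1 to 3 of the lists without plasma they were 57.0% and 54.2%. Each bivalent region had to have a peak without plasma, so a higher fold there follows in part from the rule. H3K27me3 peaks took 31.7% of all bases in bivalent regions with plasma of 3-month rats and 21.5% with plasma of 22-month rats, against 75.7% without plasma. When only peaks of a fold of 4 or more counted, 244 bivalent regions (6.01%) had them in both plasma lists, against 1.49% of all constitutive regions. The plasma lists kept 41700562 and 44383604 ChIP tags and held 37241 and 51178 peaks, whereas the list without plasma kept 117740131 tags and held 300668 peaks. Absence from a plasma list is therefore not shown to be loss of the mark.

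Which bivalent regions kept H3K27me3 with plasma followed its fold without plasma. The 4063 regions were put in 10 classes of nearly equal size by their fold in 21-month ipsilateral tissue without plasma. In the weakest class (median fold 2.50) 22.9% (interval 19.0 to 27.2%) had a peak with plasma of 3-month rats and 8.35% (6.04 to 11.4%) with plasma of 22-month rats. In the strongest (median fold 8.66) the shares were 99.0% (97.5 to 99.6%) and 93.6% (90.8 to 95.6%). The share was higher with plasma of 3-month rats than with plasma of 22-month rats in each of the 10 classes.

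**Figure D4:**
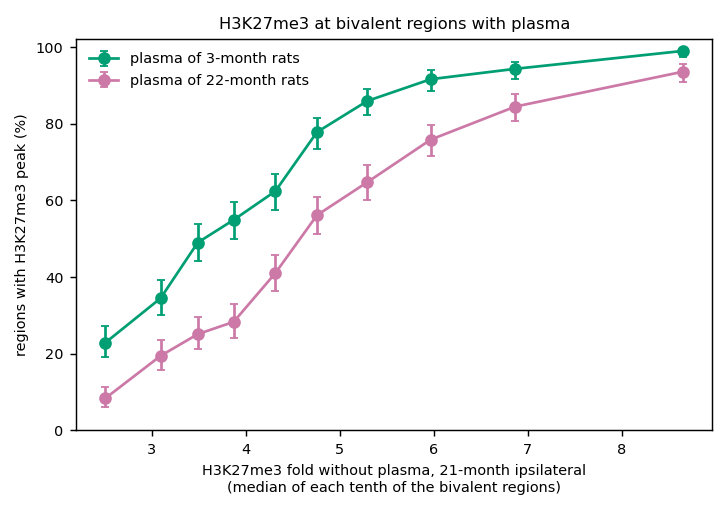
Share of bivalent regions with an H3K27me3 peak in each plasma list (percent, vertical axis, from 0) against the median H3K27me3 fold without plasma of 10 classes of about 406 regions (horizontal axis); bars are 95% Wilson intervals. The share climbs from 22.9% to 99.0% with plasma of 3-month rats and from 8.35% to 93.6% with plasma of 22-month rats.

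Region by region, 903 bivalent regions (22.2%) had H3K27me3 with plasma of 3-month rats alone and 191 (4.70%) with plasma of 22-month rats alone, against 5.48% and 1.64% of all constitutive regions. At the 1829 regions with a peak in both, the fold with plasma of 3-month rats was the higher in 82.1%, by a median of 0.44 on the log2 scale. Over all constitutive regions with a peak in both, most of them bivalent, the share was 79.7%. It was 39.0% at the 82 such regions with H3K27me3 in 1 to 3 of the lists without plasma. At the 16 with it in none of those lists it was 18.8%. The tags and peaks of both plasma lists are given above, and their part in these shares was not tested. H3K27me3 and H3K9ac went in opposite directions between the plasmas at these regions, H3K27me3 being more frequent and H3K9ac less frequent with plasma of 3-month rats, and each of these 4 lists rests on 1 ChIP and 1 input library.

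The strongest H3K27me3 with plasma was at a pair of regions 632 bp apart on chromosome 1, at chr1:203520257-203521464 and chr1:203522097-203522825, which share the same H3K27me3 peaks. The folds were 6.64 with plasma of 3-month rats and 6.87 with plasma of 22-month rats, against 9.13 in 21-month ipsilateral tissue without plasma. The first of the pair had H3K9ac in 3 lists and the second in none. The region at chr5:134792460-134792968 had plasma H3K27me3 folds of 9.08 and 6.19, and that at chr14:13071535-13073787 had 6.81 and 6.16 together with H3K9ac in all 6 lists. Strong H3K27me3 with plasma was found both with and without H3K9ac.

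Of the regions without H3K27me3 in either plasma list, the one with the strongest H3K27me3 otherwise lay at chr5:169336324-169336836, with folds of 6.42, 8.72, 7.12 and 9.49 in 13-month ipsilateral, 13-month contralateral, 21-month ipsilateral and 21-month contralateral tissue. H3K27me3 covered 77 to 319 of its 513 bp. The next 3, at chr9:16859107-16860122, chrX:156235304-156236645 and chr15:2366634-2367971, had lowest H3K27me3 folds between 5.25 and 5.61. Over all 1140 regions of this kind the median fold in 21-month ipsilateral tissue was 3.36, against 5.83 for those that had H3K27me3 with both plasmas. H3K9ac in all 6 lists was present at 81.7% (interval 79.3 to 83.8%) of the 1140 and at 58.0% (55.7 to 60.3%) of the 1829.

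The constitutive region next to a bivalent region was bivalent more often than the one next to a region without H3K27me3. A total of 1433 (35.3%, interval 33.8 to 36.8%) had another bivalent region within 50 kb, in 576 groups of 2 or more. Bivalent regions nonetheless lay far apart, with a median gap to the next bivalent region of 275085 bp. Between regions without H3K27me3, a larger class, it was 55631.5 bp. The median gap to the next constitutive region of any kind was 63946.5 bp from bivalent regions and 37686 bp from regions without H3K27me3. Going along the chromosome, the next constitutive region was bivalent for 34.3% (32.9 to 35.8%) of bivalent regions and for 16.3% (15.6 to 17.0%) of regions without H3K27me3. Where that next region was within 10 kb the shares were 58.4% (54.9 to 61.8%) and 6.37% (5.46 to 7.42%), and where it was over 50 kb away they were 28.4% (26.6 to 30.3%) and 24.8% (23.6 to 26.1%). Over all constitutive regions the next one was bivalent for 21.5% at any distance, for 19.9% within 10 kb and for 25.6% over 50 kb. The shares of bivalent regions and regions without H3K27me3 differed most at short distances. With the widest H3K27me3 domain taken for each, the 4063 bivalent regions lay in 3750 (13-month ipsilateral), 3839 (13-month contralateral), 3703 (21-month ipsilateral) and 3731 (21-month contralateral) domains. Some bivalent regions therefore shared a domain. A domain that spans neighbouring regions can make all of them bivalent, so the contrast at short distances is partly built into the rule. How often neighbours at a given distance shared a domain was not counted.

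Bivalent regions with a bivalent neighbour within 50 kb differed from the 2630 without one. They were shorter, with a median of 1333 bp against 1818 bp, and had weaker H3K4me3, with a median lowest fold of 4.22 against 5.37. H3K27me3 was present in both plasma lists at 52.8% (interval 50.2 to 55.3%) of them against 40.8% (38.9 to 42.7%), and H3K9ac in all 6 lists at 60.2% (57.7 to 62.7%) against 74.6% (72.9 to 76.2%). The grouped regions thus more often had H3K27me3 in both plasma lists and less often H3K9ac in all 6 lists. Without plasma their median lowest H3K27me3 fold was also higher, 3.98 against 3.45. Their median lowest H3K27me3 coverage was 68.0% against 50.1%, and the part of each was not tested.

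Groups of 4 or more numbered 65 and held 298 bivalent regions. The largest, at chr15:108841787-108924843, spanned 83.1 kb and held 8, with no other constitutive region between them. All 8 kept H3K27me3 in both plasma lists, and their lowest H3K27me3 fold without plasma ranged from 4.02 to 8.47. H3K9ac was present in all 6 lists at 3 of them and was missing only with plasma of 3-month rats at the other 5.

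**Figure D5:**
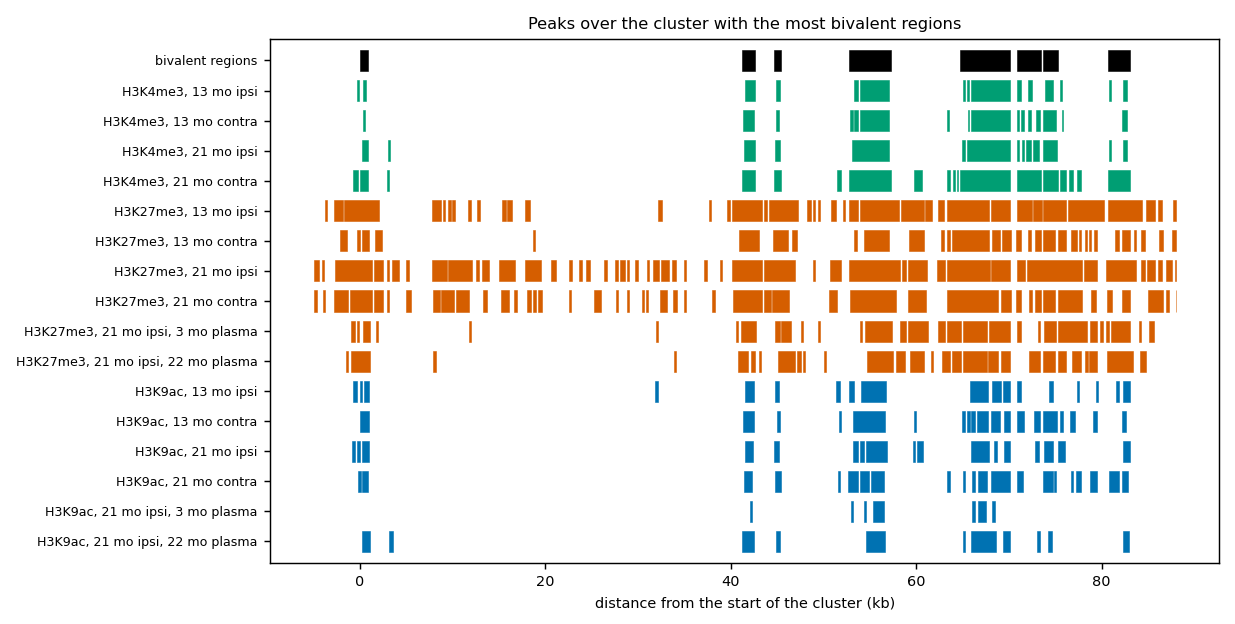
Peaks of the 16 lists (1 row per list, bars drawn to scale) over the group with the most bivalent regions, with the 8 regions in the top row; the horizontal axis is the distance from the start of the group in kb. H3K27me3 peaks of the 21-month lists fill most of the right part and also occur between the regions, and H3K9ac with plasma of 3-month rats is present at 3 of the 8 regions.

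A pair of groups held 7. The first, at chr6:69960956-69989496, packed its 7 regions into 28.5 kb, all with H3K9ac in all 6 lists and 6 with H3K27me3 in both plasma lists. The second, at chr1:131425252-131461018, spanned 35.8 kb, and there 2 of the 7 had H3K9ac in all 6 lists and all 7 had H3K27me3 in both plasma lists. Another 6 groups held 6 regions each, on chromosomes 1, 3, 7 and 10, over 58.6 to 114 kb. These groups differed in H3K9ac although all of their regions carry both marks of the rule.

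Bivalent regions occurred on every assembled chromosome with more than 7 constitutive regions. Their share of the constitutive regions ran from 15.9% (interval 13.2 to 19.1%) on chromosome X to 24.8% (22.5 to 27.1%) on chromosome 3. None of the 7 constitutive regions on chromosome Y was bivalent, and 8 bivalent regions lay on unplaced scaffolds.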

How the data were processed

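Per the file headers, the peak caller was MACS 2.1.1.20160309, run for narrow peaks with an effective genome size of 2.70 Gb and q-values up to 0.05. Cutadapt, Bowtie2 and HOMER are also named in the submitters' processing notes. For each peak the authors deposited a pileup signal, which was not used, a fold (ratio to local background) and a −log10 q-value, used for alternative settings; the 16 columns of −log10 p-values stayed aside. Lists pool 2 ChIP and 2 input libraries without plasma and 1 of each with plasma, per the file headers. The labels do not say whether libraries come from separate animals. Narrow calling can break broad H3K27me3 domains into many peaks.

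Regions were joined and overlapped with numpy 2.4.6 and pandas 2.3.3, and intervals computed with scipy 1.17.1, in Python 3.11.15; the joining was checked on simulated peak lists with known members. Overlap meant at least 1 bp. Groups of regions join neighbours within 50 kb. The difference of shares has a Newcombe interval at the 95% level. ChIP tags kept per list (19323327 to 117740131) limit which weak peaks could be called. Regions named in the text were chosen by rank: strongest or longest for each feature, the groups with most members, and those nearest the border of the rule. The bivalent regions and these rules were chosen with earlier results of these data known. Gene tables at hand belong to another build: peaks on chromosome 1 reach 12.3 Mb beyond its last gene. Gene names, marker genes and sequences were therefore not used here.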

Additional observations from a re-analysis of the deposited data

Results flagged for a closer look

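The difference between the sides in H3K9ac at the bivalent regions pointed in opposite directions at the 2 ages. The share of bivalent regions with an H3K9ac peak differed by -7.65 percentage points (ipsilateral minus contralateral, 86.8% and 94.5%) at 13 months and by 13.1 points (97.1% and 84.0%) at 21 months. Over all constitutive regions the differences were -3.02 and 2.19 points, and over the regions without H3K27me3 they were -1.26 and -1.56 points. There is 1 pooled list per side and age, and the difference between the ages was not tested. The 13-month ipsilateral list kept the fewest tags of the H3K9ac lists and the 21-month contralateral list the most.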

How the results depend on the processing

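No paired analysis was possible because the lists pool the libraries of a group. The number of bivalent regions stayed within 1.5 times of 4063 under all 8 settings tried (2994 to 4548). Their median length was 1892 bp when H3K4me3 peaks within 500 bp were joined, and 1602.5 to 1675.5 bp under the other 7. The share with H3K9ac in all 6 lists, 69.5%, was 66.1% with peaks of a q-value of 0.001 or lower, 59.5% with equal numbers of peaks per mark and 11.1% at an H3K9ac fold of 4 or more. Chosen after seeing the data, leaving out 1 H3K9ac list gave 71.0% (13-month ipsilateral), 78.7% (plasma of 3-month rats) and 71.97% (21-month contralateral). The share with H3K27me3 in both plasma lists, 45.02%, was 40.5% at the stricter q-value, 51.7% with equal numbers of peaks, 40.7% when either 13-month H3K27me3 list was left out of the rule, and 6.01% at a plasma fold of 4 or more. The share within 50 kb of another bivalent region, 35.3%, was 33.1% with equal numbers of peaks, 31.4% with joined peaks, and 36.9% and 37.3% without the 13-month ipsilateral or contralateral H3K27me3 list in the rule. It was 25.8% within 20 kb and 47.4% within 100 kb. The H3K9ac difference from regions without H3K27me3 kept its sign in each list with at least 200 bp of overlap, the stricter q-value and equal numbers of peaks. In 21-month contralateral tissue it was -25.3 points with equal numbers of peaks, against -13.9.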
